A study of Mus musculus with 16 samples.

Results

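The Cyp4a genes and their neighbour Cyp4b1 encode fatty acid hydroxylases of the cytochrome P450 superfamily, and 7 of them were followed here through the kidney cortex of running mice. The members were the rows whose Ensembl gene ID carries the name Cyp4a10, Cyp4a12a, Cyp4a12b, Cyp4a14, Cyp4a31, Cyp4a32 or Cyp4b1 in GENCODE M21. They were 7 of the 55414 genes of the count table. The family was chosen by CPM values of these same 4 groups, which were known beforehand, so its levels in the running and sedentary groups are given below as a description.

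All mice were wild-type C57BL/6J males, with no other allele or agent. There were 4 groups of 4 libraries. Sedentary mice did not run, and the others ran on a forced treadmill for 40 minutes at 70% of capacity over 1 day (named 24 h in the labels), 1 week (1 wk) or 2 weeks (2 wk). It is not stated if the 24 h mice were killed on the day of the run or 24 h after it. It is also not stated that every library is a different animal, and p-values therefore describe the spread over libraries, part of which may be technical. A letter in the sample titles differs between sedentary and running libraries and is not explained, so what it marks cannot be told apart from running.

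These enzymes sit in the endoplasmic reticulum and place a hydroxyl group on the last carbon of a fatty acid chain, a reaction called omega-hydroxylation. The product can be oxidised to a dicarboxylic acid and shortened in peroxisomes. With arachidonic acid as substrate the product is a hydroxyeicosatetraenoic acid that constricts small renal arteries and lowers sodium reabsorption in the tubule, and most renal Cyp4a protein is found in the proximal tubule. Cyp4a10 and Cyp4a14 are textbook targets of PPAR-alpha, a nuclear receptor for fatty acids that is active in fasting. Cyp4a12a is the main arachidonic acid omega-hydroxylase of the male mouse kidney and depends on androgens. Cyp4b1 favours shorter chains and foreign compounds.

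All 7 genes lie on chromosome 4 of GRCm38 and are protein coding in GENCODE M21. Cyp4a12a (ENSMUSG00000066071) spans 115299046 to 115332815 on the plus strand and Cyp4a12b (ENSMUSG00000078597) spans 115411624 to 115439034 on the same strand. Cyp4a14 (ENSMUSG00000028715) lies on the minus strand from 115486200 to 115496142. Cyp4a10 (ENSMUSG00000066072) follows from 115518264 to 115533649, Cyp4a31 (ENSMUSG00000028712) from 115563649 to 115579015 and Cyp4a32 (ENSMUSG00000063929) from 115600969 to 115621602, these 3 on the plus strand. Cyp4b1 (ENSMUSG00000028713) closes the cluster on the minus strand, from 115624725 to 115647723.

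The coding sequences fall into 4 subgroups, which matters for the counts because near-identical copies can compete for the same reads. Cyp4a10 and Cyp4a31 shared 96.6% of aligned coding bases, Cyp4a10 and Cyp4a32 97.2%, and Cyp4a12a and Cyp4a12b 98.5%. Cyp4a14 shared 75.6% with Cyp4a10, and Cyp4b1 shared 59.3% with it. The stretch that codes for the loop around the cysteine that holds the haem iron is the best known motif of a P450 and shows these subgroups. The 93 coding bases around that codon are given below from the GENCODE M21 transcripts, 5′ to 3′, with capitals where a base differs from Cyp4a10.
Cyp4a10: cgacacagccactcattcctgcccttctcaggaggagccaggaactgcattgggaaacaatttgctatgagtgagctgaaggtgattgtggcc
Cyp4a31: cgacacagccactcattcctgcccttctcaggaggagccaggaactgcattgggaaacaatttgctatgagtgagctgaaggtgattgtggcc
Cyp4a32: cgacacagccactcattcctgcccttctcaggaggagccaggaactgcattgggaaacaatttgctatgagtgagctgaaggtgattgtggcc
Cyp4a12a: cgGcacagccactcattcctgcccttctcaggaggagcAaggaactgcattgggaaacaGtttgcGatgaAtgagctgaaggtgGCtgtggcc
Cyp4a12b: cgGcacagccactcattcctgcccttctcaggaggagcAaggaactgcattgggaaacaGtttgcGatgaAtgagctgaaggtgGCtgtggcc
Cyp4a14: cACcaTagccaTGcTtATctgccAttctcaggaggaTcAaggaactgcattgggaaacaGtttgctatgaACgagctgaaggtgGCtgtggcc
Cyp4b1: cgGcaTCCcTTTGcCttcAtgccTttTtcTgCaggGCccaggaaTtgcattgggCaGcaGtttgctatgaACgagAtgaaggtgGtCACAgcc
Here Cyp4a10, Cyp4a31 and Cyp4a32 were identical, and so were Cyp4a12a and Cyp4a12b, which had 7 differences from Cyp4a10. Cyp4a14 had 16 differences and Cyp4b1 had 28.

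Where copies are identical in this window, reads from within it cannot be assigned to 1 of them, whereas other stretches separate these copies. Coding bases 214 to 273 tell Cyp4a31 (3 differences) and Cyp4a32 (9 differences) from Cyp4a10, and bases 624 to 683 tell Cyp4a12b (4 differences) from Cyp4a12a. They are shown because the values of each copy rest on reads from places like these, with capitals at the bases that differ from the first of each set.
Cyp4a10: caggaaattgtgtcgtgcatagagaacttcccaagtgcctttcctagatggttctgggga
Cyp4a31: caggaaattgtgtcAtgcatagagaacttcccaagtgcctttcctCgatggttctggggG
Cyp4a32: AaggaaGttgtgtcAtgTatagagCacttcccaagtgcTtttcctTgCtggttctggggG
Cyp4a12a: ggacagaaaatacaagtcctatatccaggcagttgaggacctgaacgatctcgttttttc
Cyp4a12b: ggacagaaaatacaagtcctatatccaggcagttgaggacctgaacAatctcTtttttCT
Of all stretches of 50 bases in the chosen transcript, 99.8% were found in no other gene's transcript for Cyp4a14, 89.7% for Cyp4b1, 78.2% for Cyp4a31, 69.5% for Cyp4a10, 53.2% for Cyp4a32, 51.1% for Cyp4a12a and 50.6% for Cyp4a12b. By this share the counts of Cyp4a14 depend least on how shared reads were treated. Those of the Cyp4a12 pair and Cyp4a32 depend on it most. The share takes no account of level, and Cyp4a32 has few counts beside the abundant copies it shares stretches with. With stretches of 100 bases the shares were 100% for Cyp4a14, 95.5% for Cyp4b1, 91.8% for Cyp4a31 and 87.3% for Cyp4a10. They were 79.9% for Cyp4a32, 64.2% for Cyp4a12a and 63.8% for Cyp4a12b. The sources used here give neither the read length nor the treatment of reads that match several genes.

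Library totals ranged from 39766260 to 66852397 counts (median 46420113), and the 7 members took 0.517% to 0.708% of them. All 7 members passed the filter on low counts, which left 16126 genes to test. Values are CPM, which are counts relative to the library size as scaled by TMM, and levels are compared between genes only as CPM per kilobase of exon. Markers of the proximal tubule were abundant in every library: the 14 general markers summed to 26165 to 28492 CPM in sedentary libraries and 25282 to 29889 CPM in running libraries, and none of the 14 had an edgeR unadjusted p under 0.05 in a comparison with sedentary mice. In bulk cortex, fewer cells of a type and less RNA per cell cannot be told apart.

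The members differed widely in level. In sedentary mice Cyp4b1 stood first with a mean of 2448 CPM per kb, followed by Cyp4a10 with 168, Cyp4a31 with 140, Cyp4a12a with 65.2, Cyp4a14 with 10.7, Cyp4a12b with 8.10 and Cyp4a32 with 0.172. The ranges of Cyp4a10 and Cyp4a31 overlapped over the 4 sedentary libraries (149.6 to 189.6 against 121.8 to 164.3 CPM per kb), as did those of Cyp4a14 and Cyp4a12b (8.46 to 15.1 against 7.11 to 9.79 CPM per kb). The other neighbours in this order did not overlap. At 2 wk the mean of Cyp4a14 (87.1 CPM per kb) stood above that of Cyp4a12a (54.2 CPM per kb), with overlapping ranges (12.9 to 138.7 against 28.2 to 77.5 CPM per kb).

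**Figure D1:**
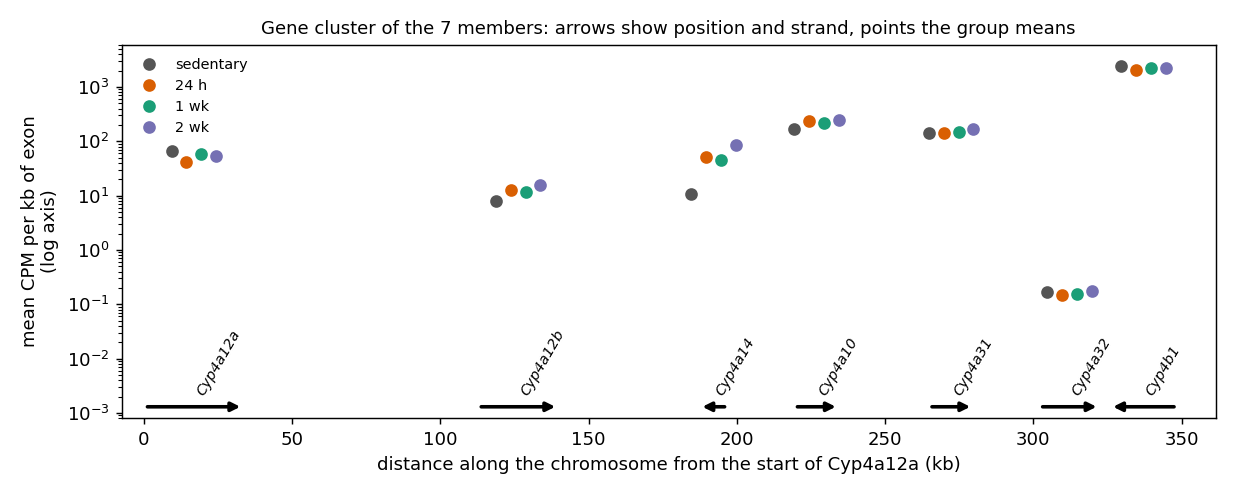
Position of the 7 genes along the cluster (x axis, kb from the start of Cyp4a12a; arrows give extent and strand) and group mean level of each (y axis, CPM per kb of exon, log axis; the 4 points of a gene are set side by side for legibility). Cyp4b1 lies near 2448 CPM per kb in sedentary mice, and Cyp4a32, its nearest neighbour, near 0.172.

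Cyp4a14 had the largest ratio of highest to lowest library among the 7 members. Its CPM in the sedentary libraries was 22, 22.4, 39.3 and 27.7 (replicates 1 to 4). At 24 h it was 95, 105.8, 305.8 and 28.7, at 1 wk 65.8, 240.4, 128.3 and 44.9, and at 2 wk 360.6, 33.5, 183.5 and 329.0. So 10 of the 12 running libraries lay above every sedentary library, and replicate 4 at 24 h and replicate 2 at 2 wk lay within the sedentary range. The highest of the 16 libraries was 16.4 times the lowest, and these values rest on 1009 to 15421 counts per library.

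The group means of Cyp4a14 were 27.9 ± 8.07 CPM in sedentary mice, 134 ± 120 at 24 h, 120 ± 87.8 at 1 wk and 227 ± 150 at 2 wk (SD, n = 4 each). The coefficient of variation was 89.4%, 73.3% and 66.2% in the 3 running groups, against 29.0% in sedentary mice. In the edgeR fit the log2 fold change against sedentary mice was 2.26 ± 0.79 (SE) at 24 h, 2.11 ± 0.79 at 1 wk and 3.02 ± 0.81 at 2 wk, with adjusted p of 0.416, 0.723 and 0.374. None passed the threshold of 0.05. The 24 h value leaned on 1 library, since without replicate 3 of that group it was 1.46 ± 0.74. DESeq2, run as an alternative, gave 3.03 with an adjusted p of 0.0119 at 2 wk, where it called 0.243% of the genes it adjusted.

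**Figure D2:**
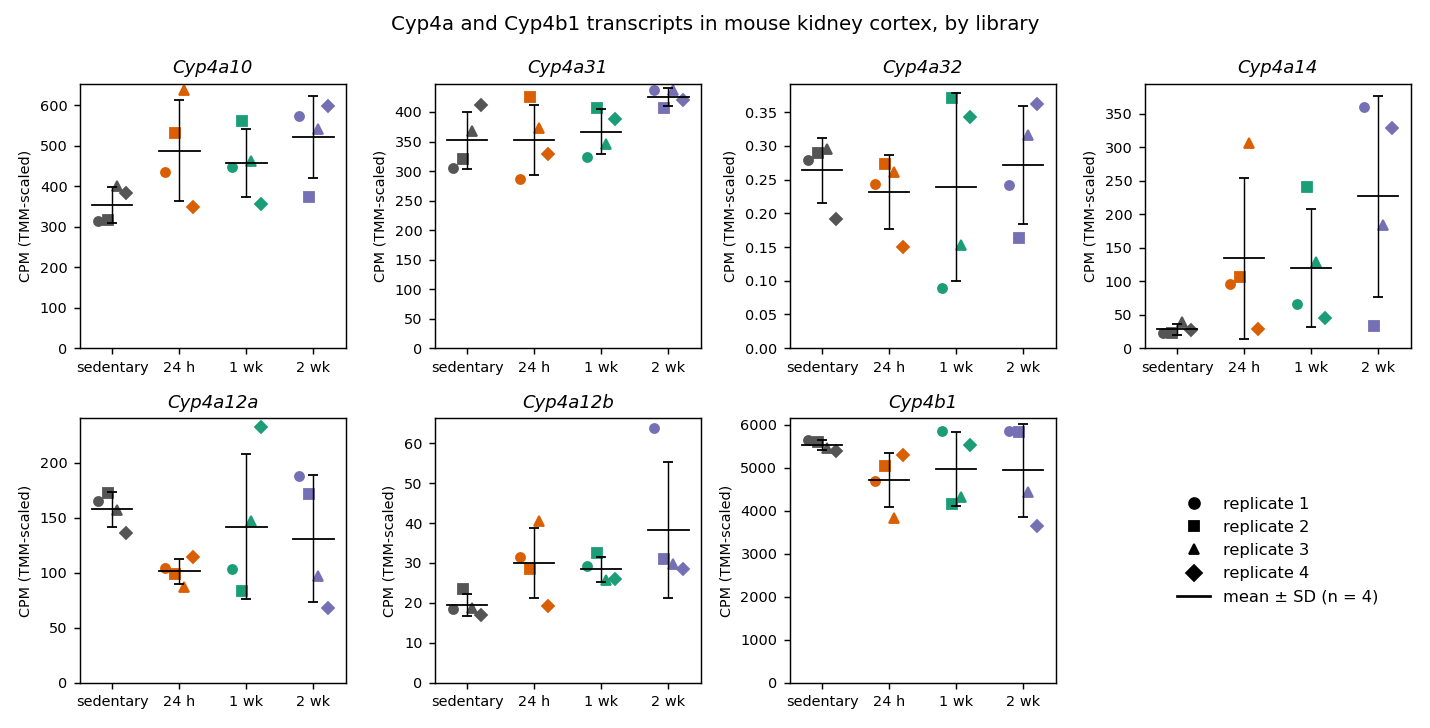
CPM of each member (y axis, own linear scale from 0 in each panel) in every library by group (x axis); symbols mark the replicate number and bars the mean ± SD of 4 libraries. Cyp4a14 spreads from 28.7 to 305.8 CPM at 24 h and from 33.5 to 360.6 CPM at 2 wk, while its 4 sedentary libraries lie between 22 and 39.3 CPM.

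Cyp4a10, the other member known as a strong PPAR-alpha target, had a high basal level and differed by less. Its CPM was 315.4, 316.6, 399.8 and 383.6 in sedentary libraries. It was 434.4, 532.6, 637.5 and 347.8 at 24 h, 447.2, 561.0, 463.8 and 355.4 at 1 wk, and 573.3, 373.6, 541.7 and 597.8 at 2 wk. In each running group 1 library lay within the sedentary range, namely replicate 4 at 24 h, replicate 4 at 1 wk and replicate 2 at 2 wk, and the other 9 lay above it. Those 3 libraries were also the lowest of their groups for Cyp4a14. The log2 fold change was 0.46, 0.37 and 0.56 (SE 0.18 for each) at 24 h, 1 wk and 2 wk. None passed in edgeR (adjusted p 0.444, 0.825 and 0.412).

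Cyp4a31 and Cyp4a32 are the copies closest to Cyp4a10 in sequence. Cyp4a31 had 352 ± 48.3 CPM in sedentary mice, 353 ± 59.8 at 24 h, 366 ± 38.0 at 1 wk and 425 ± 15.1 at 2 wk (SD, n = 4). Its 4 libraries at 2 wk lay close together, between 405.9 and 437.4 CPM, and 3 of them were above the highest sedentary library (412.2 CPM). Its log2 fold change at 2 wk was 0.27 ± 0.12 (edgeR adjusted p 0.64). Cyp4a32 was near the limit of detection, with 4 to 18 counts per library (0.0887 to 0.371 CPM), so that counting error alone limits what it can show, and some of those reads may belong to its copies. With the counts of Cyp4a10, Cyp4a31 and Cyp4a32 added up, so that the split between these copies does not enter (reads lost for matching several genes would still be missing), the log2 fold change was 0.25 ± 0.14 at 24 h, 0.22 ± 0.14 at 1 wk and 0.42 ± 0.14 at 2 wk (edgeR adjusted p 0.599, 0.911 and 0.431).

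Within the Cyp4a12 pair the group means of the 2 copies stood on opposite sides of the sedentary level. Cyp4a12a, the androgen-dependent arachidonic acid hydroxylase, had 165.1, 172.9, 157.4 and 136.0 CPM in sedentary libraries and 104.7, 99.3, 87.1 and 114.6 CPM at 24 h. The 24 h and sedentary groups did not overlap, and the log2 fold change was -0.64 ± 0.30 (edgeR adjusted p 0.565). Later the libraries scattered: Cyp4a12a had 104.0, 83.8, 147.5 and 232.3 CPM at 1 wk and 187.7, 172.2, 96.8 and 68.2 CPM at 2 wk. Both of these groups held libraries above and below the sedentary range, with log2 fold changes of -0.15 ± 0.30 and -0.27 ± 0.30. Both values leaned on single libraries: the 1 wk value was -0.49 ± 0.29 without replicate 4 of that group, -0.03 without replicate 1 and 0.03 without replicate 2, and the 2 wk value was -0.49 without replicate 1, -0.43 without replicate 2, -0.15 without replicate 3 and -0.05 without replicate 4. Voom with quality weights gave -0.55 at 1 wk and -0.61 at 2 wk.

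Cyp4a12b, the less abundant copy, had 18.5, 23.4, 18.7 and 17 CPM in sedentary libraries. It had 31.5, 28.6, 40.6 and 19.2 CPM at 24 h, 29.3, 32.5, 25.6 and 26.1 CPM at 1 wk, and 63.8, 31, 29.7 and 28.5 CPM at 2 wk. All running libraries but replicate 4 at 24 h lay above every sedentary library, so neither the 1 wk nor the 2 wk group overlapped with the sedentary group. The log2 fold change was 0.63, 0.55 and 0.98 (SE 0.23 or 0.24) at the 3 durations, with edgeR adjusted p of 0.438, 0.782 and 0.334. Replicate 1 at 2 wk carried much of the last value, which was 0.62 ± 0.17 without it. DESeq2 gave 0.98 at 2 wk with an adjusted p of 0.0169.

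The share of Cyp4a12b in the counts of the pair puts both values in 1 number. It was 10.1% to 11.9% in sedentary libraries, 14.3% to 31.8% at 24 h, 10.1% to 28.0% at 1 wk and 15.3% to 29.5% at 2 wk. Every library at 24 h and 2 wk had a higher share than every sedentary library, and at 1 wk 3 of 4 did. How often other pairs of genes separate like this was not computed, and the members were chosen with these values known. With the counts of both copies added up, the log2 fold change was -0.43 ± 0.25 at 24 h, -0.06 ± 0.25 at 1 wk and -0.06 ± 0.25 at 2 wk, none of which passed in edgeR (adjusted p 0.641, 0.992 and 0.974). As 51.1% and 50.6% of the 50-base stretches are particular to their copy, a part of the Cyp4a12b values may come from Cyp4a12a reads, and the split between the copies is uncertain.

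Cyp4b1 was among the abundant transcripts of the cortex and made up 84.7% to 87.2% of the members' counts in sedentary libraries. Its sedentary values were 5638, 5600, 5451 and 5401 CPM, a coefficient of variation of 2.07%. It had 4699, 5039, 3835 and 5291 CPM at 24 h, 5858, 4167, 4316 and 5538 CPM at 1 wk, and 5859, 5823, 4434 and 3643 CPM at 2 wk, with coefficients of variation of 13.5%, 17.2% and 22.1%. The 4 libraries at 24 h lay below every sedentary library, and the later groups held libraries both above and below the sedentary range. The log2 fold change was -0.23, -0.15 and -0.16 (SE 0.15 for each), and none passed in edgeR (adjusted p 0.676, 0.936 and 0.82).

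The 6 Cyp4a transcripts together came to 911 ± 81.0 CPM in sedentary mice, 1106 ± 269 at 24 h, 1114 ± 152 at 1 wk and 1343 ± 257 at 2 wk (SD, n = 4). Cyp4a14 made up 2.62% to 4.00% of that sum in sedentary libraries and up to 21.2% at 24 h, 18.1% at 1 wk and 22.8% at 2 wk. Cyp4b1 dominated the sum over all 7 members, which was 6433 ± 39.5 CPM in sedentary libraries, 5823 ± 442 at 24 h, 6083 ± 728 at 1 wk and 6283 ± 1079 at 2 wk.

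No member passed the edgeR test at an adjusted p of 0.05 in any comparison with sedentary mice, and neither did any other gene (percent called 0 in each of the 3). At an unadjusted p under 0.05, 3 of 7 members were higher at 24 h (4.49% of all genes tested), the same number at 1 wk (2.33%) and 4 of 7 at 2 wk (4.02%). None was lower at 24 h (4.43% of all genes), 1 wk (3.72%) or 2 wk (3.24%). At 24 h and 1 wk they were Cyp4a10, Cyp4a12b and Cyp4a14, and at 2 wk Cyp4a31 joined them. Groups that did not overlap with the sedentary group numbered 2 lower at 24 h, Cyp4a12a and Cyp4b1 (3.66% of all genes), 2 higher at 1 wk, Cyp4a12b and Cyp4a14 (1.71%), and 1 higher at 2 wk, Cyp4a12b (2.29%). As the members were chosen with these values known, nothing is read from their counts. The 3 comparisons share the sedentary libraries.

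**Figure D3:**
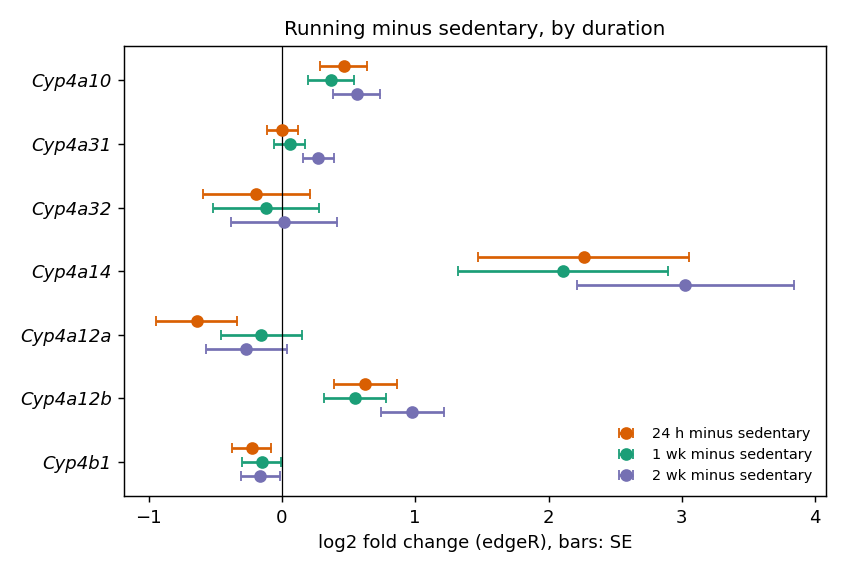
Log2 fold change of each member against sedentary mice (x axis) at 24 h, 1 wk and 2 wk, from the edgeR fit of all 16 libraries; bars are the SE. Cyp4a14 lies at 2.26, 2.11 and 3.02 with the widest bars, Cyp4a10 and Cyp4a12b lie above 0 at each duration, and Cyp4a12a and Cyp4b1 lie below it.

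Between durations of running, no member passed in edgeR. The percent called was 0 for 1 wk against 24 h and for 2 wk against 1 wk, and 0.0124 for 2 wk against 24 h, where the 2 genes called were not members. Cyp4a31 was the 1 member with an unadjusted p under 0.05, in 2 wk against 24 h, a rule that 5.29% of all genes met on the higher side. For Cyp4a14 the order of the group means (24 h above 1 wk, 2 wk highest) lay within the spread of the libraries.

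The members were also compared with each other from library to library. A correlation over all 16 libraries and its p include the differences between groups on which the members were chosen, so they are in part set by that choice, and this holds for the gene lists below too. The values with each group's mean removed are free of those differences and have no p. Over the 16 libraries the log2 CPM of Cyp4a10 and Cyp4a14 were correlated with Pearson r = 0.96 and Spearman rho = 0.95 (permutation test with adjustment over 21 pairs, p = 0.00021 for both, the smallest that 100000 permutations can give). With each group's mean removed r was 0.94, over the 12 running libraries alone 0.95, and without the 2 libraries farthest from the median of Cyp4a10 also 0.95. The pair of 75.6% identity thus had a higher r than Cyp4a10 and its 96.6% identical copy Cyp4a31 (r = 0.55, adjusted permutation p = 0.0639). The difference between these correlations was not tested.

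Cyp4a12b and Cyp4a14 had r = 0.77 and rho = 0.75 over all libraries (adjusted permutation p = 0.00116 and 0.00931), which takes in that both were higher in most running libraries. Once group means were removed r was 0.57, a value that was not tested. With its own near-identical copy Cyp4a12a its r was -0.13 and rho -0.29 (adjusted permutation p = 0.72 and 0.415). Cyp4a12a varied with Cyp4b1 at r = 0.76 and rho = 0.77 (adjusted permutation p = 0.00441 and 0.00788), with 0.72 once group means were removed and 0.70 without the 2 farthest libraries. In the 2 wk group, for example, Cyp4a12a and Cyp4b1 had their 2 lowest values in replicates 3 and 4 alike.

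Some pairs of members had a negative r. Cyp4a10 against Cyp4a12a gave r = -0.66 and rho = -0.65 (adjusted permutation p = 0.0196 and 0.0337). Cyp4a14 against Cyp4b1 gave r = -0.70 with an adjusted permutation p of 0.012, and rho = -0.49 with 0.118, so the rank relation did not pass. Cyp4a10 against Cyp4b1 gave r = -0.69 and rho = -0.55 (0.012 and 0.0769). Cyp4a14 against Cyp4a12a gave r = -0.56, which did not pass (0.0639). Cyp4a12b had an r of -0.20 with Cyp4b1, and Cyp4a31 had -0.20 with Cyp4b1 and -0.12 with Cyp4a12a, none of which passed. Without replicates 1 and 4 at 2 wk, the 2 libraries of highest Cyp4a14, its r with Cyp4b1 was -0.89, and replicate 1 had both at their highest (360.6 and 5859 CPM). All points of these relations come from the same 16 libraries and share their depth and scaling.

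**Figure D4:**
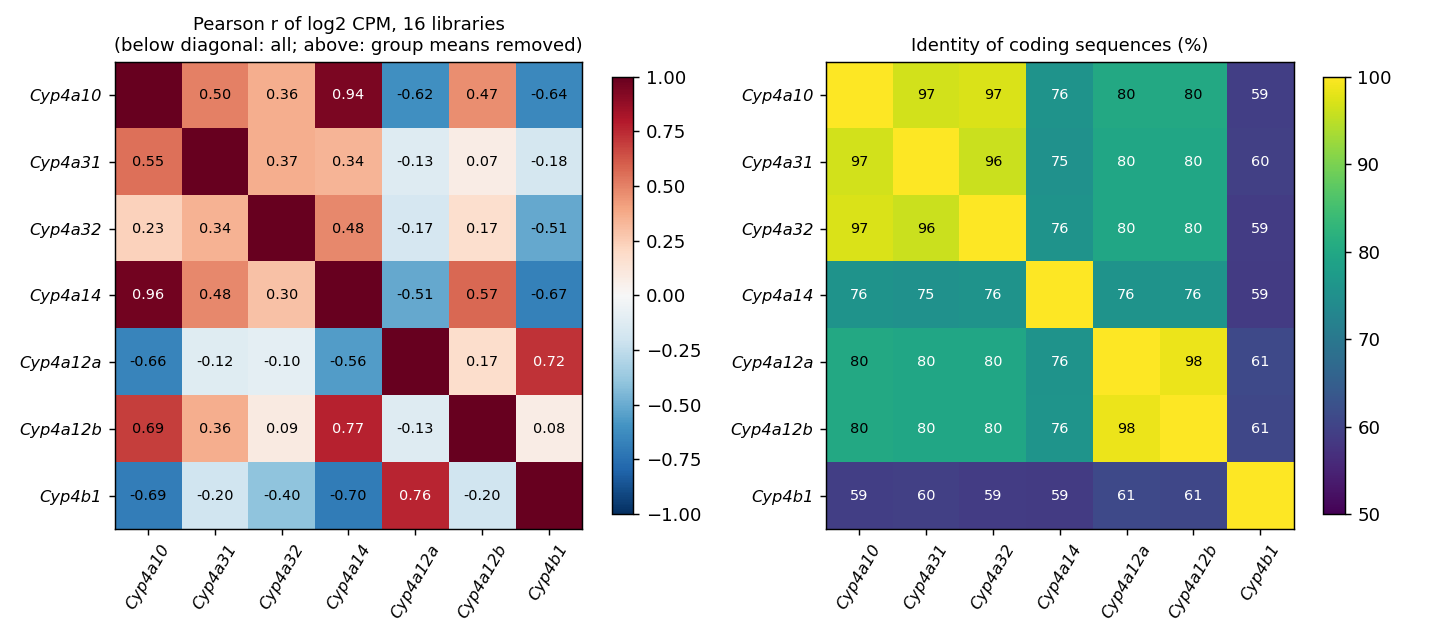
Left, Pearson r of log2 CPM for each pair of members over 16 libraries (below the diagonal, all libraries as they are; above it, with group means removed); right, identity of their coding sequences in percent. The highest r, 0.96 for Cyp4a10 and Cyp4a14, belongs to a pair of 75.6% identity, and the most alike pair, Cyp4a12a and Cyp4a12b at 98.5%, has an r of -0.13.

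PPAR-alpha targets outside the cluster were examined next, with a list of 38 genes of fatty acid oxidation and lipid handling, of which 36 were tested. None passed the edgeR test in a comparison with sedentary mice. At an unadjusted p under 0.05, 6 were higher at 24 h, 3 at 1 wk and 7 at 2 wk, and none was lower (4.49%, 2.33% and 4.02% of all genes on the higher side). The median log2 fold change of the list was 0.07, 0.06 and 0.06, against -0.0046, 0.0039 and 0.0084 over all genes, so most of the list lay near 0. Angptl4, a secreted inhibitor of lipoprotein lipase, had 113 ± 26.3 CPM at 24 h against 63.6 ± 8.94 in sedentary mice (SD, n = 4), a log2 fold change of 0.83 ± 0.20 with an edgeR adjusted p of 0.192. Pdk4, which curbs glucose oxidation, and Acot1, an acyl-CoA thioesterase, had log2 fold changes of 0.15 ± 0.33 and 0.20 ± 0.16 at 24 h, and Cpt1a, the carnitine palmitoyltransferase that admits fatty acids to mitochondria, -0.25 ± 0.16.

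From library to library, Cyp4a14 varied with this list. The mean log2 CPM of the tested targets had r = 0.90 and rho = 0.91 with Cyp4a14 (permutation p adjusted over 12 relations, 0.00012 for both, the smallest that the permutations can give). It was 0.92 with group means removed and 0.88 without the 2 farthest libraries. The same mean had r = -0.63 and rho = -0.56 with Cyp4b1 (adjusted permutation p = 0.0279 and 0.098). That r was -0.53 with group means removed and -0.42 without the 2 farthest libraries. Of the 36 targets, 29 had a positive r with Cyp4a14 and 28 of 36 did with group means removed, and the median r was 0.36. Over 12072 genes with at least 1 CPM on average, 45.3% had a positive r and the median was -0.0456, with group means left in. No such share was computed with group means removed, so the 28 of 36 has none beside it. Some genes of the list were named in earlier results of these data, so the list is not independent evidence.

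Single targets ranged widely in this relation. The permutation test adjusted over the 36 targets called 9 with a positive r and none with a negative one. Among the 9, Mgll, which releases fatty acids from monoacylglycerol, had r = 0.94, and Ucp2, a mitochondrial carrier, had 0.87. Angptl4 had 0.75, and the thiolases Acaa1b and Acaa2 0.70 and 0.66. Acot1 had 0.66, Eci1, an enoyl-CoA isomerase, 0.65, and Acot3, a further thioesterase, 0.64, while Pdk4 had 0.24 and Cpt1a -0.51 (adjusted permutation p = 0.477 and 0.157). Mgll rested on a narrow range, 46.7 to 50.7 CPM in sedentary and 50.6 to 89.8 CPM in running libraries, and Ucp2 on a wider one, 86.0 to 108.6 and 91.6 to 233.7 CPM.

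**Figure D5:**
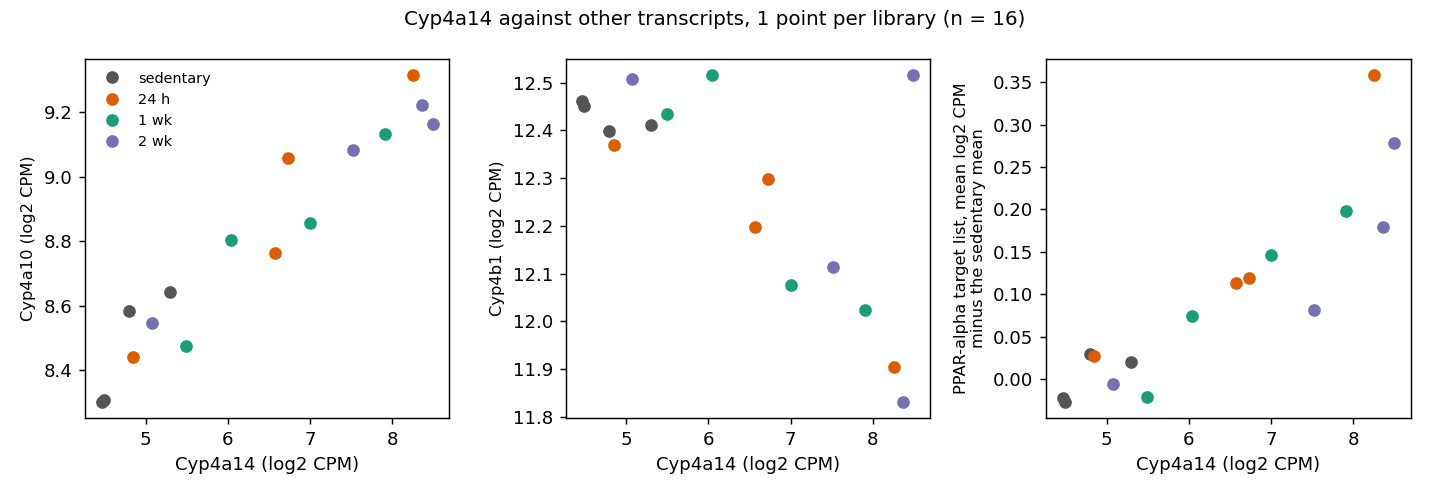
Log2 CPM of Cyp4a14 (x axis) against log2 CPM of Cyp4a10 (left), log2 CPM of Cyp4b1 (middle) and the mean log2 CPM of the PPAR-alpha target list minus its sedentary mean (right), 1 point per library (n = 16) coloured by group. Points climb from the sedentary libraries to the running libraries of highest Cyp4a14 in the left and right panels (r = 0.96 and 0.90), and in the middle panel 1 library at 2 wk stands apart at the upper right.

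The genes most like each subgroup were sought among 12072 genes by Pearson r over the 16 libraries, as a description. For Cyp4a14 they included Mgll (0.94), Ucp2 (0.87), Rusc1 (0.84) and Ndrg2 (0.80). For Cyp4a10 they included Mgll (0.91), Plpp5, a lipid phosphatase (0.83), Vpreb1 (0.82) and Ucp2 (0.80), with Vpreb1 at only 0.766 to 2.19 CPM. For Cyp4a12a they were Fmo5, a flavin monooxygenase (0.82), Cyp2j13, another P450 (0.81), Slc18a1 (0.81), Acsm2, a medium-chain acyl-CoA synthetase of the proximal tubule (0.80), and Slc47a1, an organic cation exporter (0.80). For Cyp4b1 they were Cyp2j13 (0.89), Frrs1 (0.87), Smarca2 (0.86), Sptlc1, a subunit of the enzyme that starts sphingolipid synthesis (0.86), and Ptpra (0.85). Mgll and Ucp2 stood in the lists of both Cyp4a10 and Cyp4a14, and Cyp2j13 in those of both Cyp4a12a and Cyp4b1.

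The transcripts of the receptors and other regulators gave little to set beside these values. Of 22 nuclear receptors, hormone receptors and transcription factors, none passed in edgeR, and 3, 3 and 2 had an unadjusted p under 0.05 at the 3 durations (8.92%, 6.05% and 7.26% of all genes in either direction). Ppara, the receptor itself, had 18.6 ± 2.97 CPM in sedentary mice, 16.7 ± 3.78 at 24 h, 18.1 ± 9.90 at 1 wk and 22.1 ± 8.07 at 2 wk (SD, n = 4). Its log2 fold change at 24 h was -0.16 ± 0.30 (edgeR adjusted p 0.918). Ppard, a related receptor, had log2 fold changes of 0.36, 0.48 and 0.38 (SE 0.18), and Nr3c1, the glucocorticoid receptor, -0.37 ± 0.14 at 24 h.

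A P450 needs electrons from a reductase, and its product needs further enzymes. The reductase gene Por had 540 ± 44.3 CPM in sedentary mice, 502 ± 68.8 at 24 h, 562 ± 56.7 at 1 wk and 576 ± 66.0 at 2 wk (SD, n = 4). None of the 5 redox partners passed in edgeR, and Cyb5a, a cytochrome b5, was the 1 with an unadjusted p under 0.05, at 2 wk (log2 fold change -0.22 ± 0.10). Of 18 tested genes for the next steps, aldehyde oxidation, activation to acyl-CoA and import and oxidation in peroxisomes, none passed. At 2 wk 3 of 18 were higher at an unadjusted p under 0.05 (4.02% of all genes): Aldh1a1, an aldehyde dehydrogenase (0.65 ± 0.21), and the acyl-CoA synthetases Acsl4 (0.27 ± 0.11) and Acsl5 (0.18 ± 0.08).

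Arachidonic acid can also enter epoxygenase, cyclooxygenase and lipoxygenase routes. Of 16 tested genes for its release and these routes none passed in edgeR. Cyp2j5, an abundant epoxygenase of the kidney, had 1862 ± 55.1 CPM in sedentary mice, 1719 ± 15.4 at 24 h, 1734 ± 45.2 at 1 wk and 1672 ± 63.8 at 2 wk (SD, n = 4). Its log2 fold changes were -0.12, -0.10 and -0.16 (SE 0.07; edgeR adjusted p 0.652, 0.918 and 0.653). Ephx2, the soluble epoxide hydrolase that degrades epoxygenase products, had 714 ± 38.2, 705 ± 50.7, 756 ± 37.3 and 709 ± 103 CPM in the same order. Ptges, a prostaglandin E synthase, had 19 ± 1.81 CPM in sedentary mice and 27.0 ± 6.27 at 2 wk, a log2 fold change of 0.51 ± 0.13 (edgeR adjusted p 0.357).

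Other genes of the Cyp4 family were scarce beside the members. Of 17 listed genes and pseudogenes 8 were tested, and none of these had an unadjusted p under 0.05 in a comparison with sedentary mice. Their sum was 60.9 to 73.3 CPM over all libraries, most of it Cyp4f13 with 41.7 ± 2.51 CPM in sedentary mice.

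Androgen-responsive genes of the male kidney were examined because Cyp4a12a depends on androgens. None of the 11 passed in edgeR, and 2 had an unadjusted p under 0.05, both lower at 2 wk (3.24% of all genes on the lower side). These were Slco1a1, an organic anion transporter (log2 fold change -0.80 ± 0.29), and Cyp7b1, an oxysterol hydroxylase (-0.41 ± 0.13). Kap, the androgen-regulated kidney protein that alone took a few percent of the counts, had 40403 ± 2358 CPM in sedentary mice and 34436 ± 3581 at 24 h (-0.23 ± 0.13). The mean of this list had r = 0.64 with Cyp4b1 (adjusted permutation p = 0.0279) but rho = 0.35 (0.275), and r was 0.22 without the 2 farthest libraries, so the relation rests on those libraries. With Cyp4a14 its r was -0.50 (adjusted permutation p = 0.11). Its relation to Cyp4a12a was not tested. The list mean, relative to sedentary libraries, was lowest in replicate 4 at 2 wk (-0.51), where Cyp4a12a had 68.2 CPM. It was highest in replicate 4 at 1 wk (0.12), where Cyp4a12a had 232.3 CPM. In replicate 2 at 2 wk it was -0.25, although Cyp4a12a had 172.2 CPM.

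Markers of cell types and heat shock genes were measured beside the members, and their part in the members' values was not tested. The mean of the 14 general proximal tubule markers had r = 0.63 and rho = 0.67 with Cyp4b1 (adjusted permutation p = 0.0279 and 0.0366), 0.68 with group means removed and 0.69 without the 2 farthest libraries. With Cyp4a14 it had r = -0.35 (0.242), -0.57 with group means removed and -0.51 without the 2 farthest libraries. The 5 markers of the first segment had r = -0.49 and rho = -0.54 with Cyp4a14 (adjusted permutation p = 0.11 and 0.098). Lrp2, an endocytic receptor of the whole proximal tubule, had 1792 ± 213 CPM in sedentary mice and 1523 ± 127 at 24 h (log2 fold change -0.23 ± 0.15). Slc5a2, the glucose transporter of its first segment, had 513 ± 79.6 and 476 ± 63.7 CPM, and Slc7a13, a transporter of its last segment, 1068 ± 128 and 909 ± 143 CPM. Of the 6 markers of the last segment 3 had a positive log2 fold change at 24 h, with a median of 0.03, and the 1 with an unadjusted p under 0.05, Slc5a1, was higher (0.26 ± 0.09).

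Some markers of other cell types had an unadjusted edgeR p under 0.05, and none passed after adjustment. At 2 wk, 3 of 5 distal tubule markers (median log2 fold change 0.49) and 3 of 5 intercalated cell markers (0.33) were higher by this rule. So were 2 of 5 principal cell markers (0.18), against 4.02% of all genes on the higher side. At 1 wk all 5 endothelial markers were lower by the same rule (median -0.39), against 3.72% of all genes on the lower side. At 2 wk 2 of these 5 were lower (median -0.29), against 3.24% of all genes. Of 5 macrophage markers 1 was lower at 1 wk (median -0.34) and 1 at 2 wk (-0.29), while 1 was higher at 24 h (0.16). The mean log2 CPM of the distal markers stood above its sedentary mean by 0.55 and 0.64 in replicates 1 and 4 at 2 wk. It did so by 0.54 in replicate 2 at 1 wk and by 0.23 in replicate 3 at 24 h. Cyp4a14 was high in each of these libraries. The distal mean was -0.11 in replicate 4 at 24 h and 0.08 in replicate 2 at 2 wk, which had low Cyp4a14. However, it was 0.32 in replicate 4 at 1 wk, also low in Cyp4a14, and 0.34 in sedentary replicate 1. The relation of the distal markers to Cyp4a14 was not tested.

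Of 10 heat shock genes, 8 had an unadjusted edgeR p under 0.05 at 24 h, all higher (4.49% of all genes), and none passed after adjustment. Their mean log2 CPM stood above the sedentary mean by 1.28 in replicate 3 and 0.78 in replicate 4 at 24 h, and by 0.08 and 0.18 in the other 2. Replicate 3 was the 24 h library of highest Cyp4a14 and lowest Cyp4b1, and replicate 4 that of lowest Cyp4a14 and highest Cyp4b1. Over all 16 libraries the heat shock mean had r = 0.36 with Cyp4a14 and -0.32 with Cyp4b1 (adjusted permutation p = 0.242 and 0.286).

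Cells outside the tubule that express some PPAR-alpha targets were checked by their markers. The 6 fat cell markers summed to 87.5 to 111.9 CPM in sedentary libraries and 61.3 to 124.8 CPM in running libraries. The highest sum was in replicate 1 at 2 wk, the library of highest Cyp4a14. Of the 6 markers 3 were tested, among them Cidec. This gene is also on the PPAR-alpha target list and had only 0.237 to 2.18 CPM in running libraries. Relative to sedentary libraries, the mean log2 CPM of the 3 tested fat cell markers was 0.87 in replicate 1 at 2 wk. It was -0.52 in replicate 2 at 2 wk, low in Cyp4a14. In replicate 4 at 2 wk and replicate 3 at 24 h, both high in Cyp4a14, it was -0.06 and -0.39. Its relation to Cyp4a14 was not tested. The 5 hepatocyte markers summed to 161 to 211 CPM in sedentary and 68.1 to 284 CPM in running libraries. The 5 adrenal cortex markers stayed below 0.5 CPM in sum in every library but replicate 1 at 1 wk, which had 3.97 CPM. The 4 muscle markers stayed below 0.2 CPM.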

How the data were processed

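Polyadenylated RNA of kidney cortex was made into TruSeq Stranded libraries, per the labels' protocols. The authors counted reads per gene with HTSeq 0.10.0 on GRCm38 (mm10) after FastQC 0.10.1, per the submitters' processing notes, and deposited these raw counts. No aligner, annotation release or strand setting of HTSeq is given in the sources used here, so overlapping and antisense genes are uncertain. Of 24 count columns, 8 match no sample and were not used. GENCODE M21 names 52133 IDs (94.1%), which hold 99.4% of the counts.

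The test across genes was that of edgeR 4.0.16 on R 4.3.3 (filterByExpr, TMM, robust quasi-likelihood fit of all 16 libraries, Benjamini-Hochberg adjustment over 16126 genes, threshold 0.05). Values after ± are SD for CPM and SE for log2 fold changes. Correlations used log2 CPM (prior count 2) with two-sided tests of 100000 permutations. Coding sequences were aligned with Biopython 1.88. Alternatives were DESeq2 1.42.0, voom with quality weights (limma 3.58.1), DESeq2 size factors in edgeR, other filters, near-identical copies summed, a replicate block and leaving out each library. The edgeR script was tested on simulated counts.

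The members and gene lists were chosen with earlier results of these data known. Named genes were the members, for each subgroup the 5 genes of highest r with a mean of at least 1 CPM, from each list described the 4 of smallest p or fewer, and a short set of regulators, partners and markers always. Of the genes this rule names, 2 are not reported here.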

Additional observations from a re-analysis of the deposited data

Results flagged for a closer look

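In 28 combinations of member and group the library at either end was compared with the rest by the size of its gap, and 2 had a library far from the others, where chance alone gives about 1 in 20. Cyp4a12b, the less abundant copy of the Cyp4a12 pair, had 63.8 CPM in replicate 1 at 2 wk, above 31, 29.7 and 28.5 CPM in the other 3 libraries of that group. The same library had the highest Cyp4a14 of all 16 libraries (360.6 CPM). Cyp4a32 had 0.192 CPM in sedentary replicate 4, below the other 3 sedentary libraries, a value that rests on few counts.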

How the results depend on the processing

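Against 0 genes called by edgeR in each comparison with sedentary mice, DESeq2 called 78 at 24 h, 11 at 1 wk and 34 at 2 wk, voom with quality weights 59, 6 and 7, and edgeR with no filter on low counts 9, 0 and 5. For 1 wk against 24 h and 2 wk against 1 wk, also with 0 in edgeR, DESeq2 called 51 and 3 and voom 0 and 1. For 2 wk against 24 h, with 2 in edgeR, DESeq2 called 38, voom 4, the fit with no filter 8 and a filter of at least 1 CPM in 4 libraries 4. Unadjusted, 1439, 975 and 1170 genes had an edgeR p under 0.05 at 24 h, 1 wk and 2 wk. Leaving out 1 library at a time gave 0 to 0 genes at 24 h, 0 to 1 at 1 wk (1 without replicate 1 at 1 wk), 0 to 8 at 2 wk (8 without replicate 3 and 2 without replicate 2 at 2 wk), 0 to 2 for 1 wk against 24 h (2 without replicate 2 at 24 h), 0 to 0 for 2 wk against 1 wk and 0 to 7 for 2 wk against 24 h (7 without replicate 2 at 24 h, 0 without replicate 2 at 2 wk). In no comparison did every same-numbered pair of libraries have deviations correlated above 0.1, although number 3 had 0.14 to 0.62 in all 6 comparisons and matched its own number best in 5, and for 1 wk against sedentary mice 3 of 4 numbers exceeded 0.1. The numbers were therefore not taken as pairs, and a fit with the replicate block called 5 genes at 2 wk against sedentary mice and 11 for 2 wk against 24 h, and as many as the fit without it elsewhere, with no member among the calls.

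Of 612 log2 fold changes of members under these alternatives, 583 lay within 1 SE of the main edgeR value and 27 moved by more. The other 2 passed the threshold, both in DESeq2 (Cyp4a14 and Cyp4a12b at 2 wk). In 54 the sign differed from an uncalled value. Where near-identical copies were summed, each copy took the value of its sum, which is not a fold change of that copy alone. By this Cyp4a12b had -0.43 at 24 h and -0.06 at 2 wk against sedentary mice, against 0.63 and 0.98 in edgeR. Cyp4a12a had -0.55 at 1 wk and -0.61 at 2 wk under voom, against -0.15 and -0.27 in edgeR. The cause of these voom moves was not tested. Voom called no member.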
